A study of Mus musculus with 9 samples.

Results

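Mouse chromosome 15 was described as 1 block of genes in RNA sequencing of normal and leukemic bone marrow progenitors. Members were all genes whose locus in the deposited table lies on chromosome 15 (transcripts summed by gene symbol) and whose mean over the 9 libraries was at least 1 FPKM, fragments per kilobase of transcript per 1 M fragments. The rule kept 433 of the 646 chromosome 15 genes in the table, which lists 16537 genes in all. Of the 433 members, 431 had enough counts for the test across all genes. The other 2 were Rnu12 and Snora34, short RNAs at 85.1 and 81.2 FPKM that held at most 0.234 and 0.0419 CPM (counts per 1 M counts) in any library. The remaining 213 genes of the chromosome lay under 1 FPKM and were not described. Just outside the threshold were Gm10863 at 0.953, Phf21b at 0.986 and BC030476 at 0.999 FPKM, and just inside it were Nptxr at 1.02, Gm16576 at 1.07 and Adm2 at 1.11 FPKM. The chromosome was chosen because its genes stood higher in the leukemic cells of these same libraries, so the comparison of leukemic with normal cells is a description and is given without p-values. There, the calls of edgeR's test (adjusted p under 0.05) only sort members into higher, lower and neither, and the words rose and fell follow that sorting.

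All 9 libraries came from bone marrow of FVB/NJ mice, an inbred laboratory strain, with 3 libraries per group. The normal group, HPC, held hematopoietic progenitor cells of wild-type mice at postnatal day 42. The leukemic groups held leukemic progenitors (LP) of PML-RAR mice, which carry the fusion of the promyelocytic leukemia protein with retinoic acid receptor alpha, in the phases labelled early and median. All were sorted cells, per the design text of the series. The sources used here do not give the sorting markers, the age of the LP mice in days or the promoter that drives PML-RAR. Leukemia therefore cannot be told apart from age or from the mix of sorted cells. Whether libraries of 1 group are separate animals is not labelled, so p-values cover only the spread among the libraries as made, part of which can be technical. In such bulk samples, fewer cells of a type and less RNA per cell cannot be told apart.

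As background, a cell that gains a copy of a chromosome tends to make more RNA from most genes on it, roughly in proportion to the number of copies, while feedback on single genes and changes of cell state move others away from that proportion. In mouse models of acute promyelocytic leukemia driven by PML-RAR, gain of chromosome 15, which carries the growth regulator Myc, is a recurrent event. The deposited table holds RNA and no DNA copy number, so the part of copy number in the levels below was not tested. For scale, 3 copies in place of 2 would be a 1.5-fold difference, or 0.58 on the log2 scale.

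Promoter sequences are shown for 2 pairs of neighbouring members that rose by more than the chromosome's median in both LP groups. The first pair, Creld2, a protein of the endoplasmic reticulum, and Alg12, a mannosyltransferase that builds the sugar chains added there, starts from opposite strands of 1 shared stretch. The second pair, Ly6c1 and Ly6c2, encodes the closely related Ly6C surface antigens of myeloid cells. The 250 bases before each start, 5′ to 3′ on the strand of the gene, were taken from RefSeq on GRCm38.p6. In Creld2 and Alg12 the capitals mark the ER stress response element (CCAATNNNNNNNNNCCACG, searched on both strands), and in the Ly6c genes the longest run of bases that the pair has in common.
Creld2: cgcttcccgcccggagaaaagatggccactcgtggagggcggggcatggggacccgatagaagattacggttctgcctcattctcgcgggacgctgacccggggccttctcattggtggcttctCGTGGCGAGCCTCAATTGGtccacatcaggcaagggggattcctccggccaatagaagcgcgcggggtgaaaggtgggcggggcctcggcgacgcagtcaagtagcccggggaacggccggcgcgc
Alg12: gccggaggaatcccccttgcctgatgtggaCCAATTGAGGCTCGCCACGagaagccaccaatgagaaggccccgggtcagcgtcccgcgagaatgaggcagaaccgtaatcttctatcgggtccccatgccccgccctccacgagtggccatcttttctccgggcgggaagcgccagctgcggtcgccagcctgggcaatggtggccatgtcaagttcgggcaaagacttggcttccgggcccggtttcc
Ly6c1: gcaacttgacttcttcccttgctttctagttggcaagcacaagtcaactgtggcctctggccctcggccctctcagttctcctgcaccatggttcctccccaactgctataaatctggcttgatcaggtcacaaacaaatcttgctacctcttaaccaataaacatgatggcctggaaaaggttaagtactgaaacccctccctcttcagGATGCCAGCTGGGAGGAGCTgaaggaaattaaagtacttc
Ly6c2: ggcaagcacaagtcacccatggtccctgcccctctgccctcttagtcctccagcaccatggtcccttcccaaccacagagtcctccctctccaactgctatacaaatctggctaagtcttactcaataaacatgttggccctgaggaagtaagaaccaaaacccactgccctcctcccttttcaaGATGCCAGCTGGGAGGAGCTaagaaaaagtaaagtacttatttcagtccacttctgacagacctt
These stretches lie at chr15:88819396-88819645 (plus strand), chr15:88819319-88819568 (minus strand), chr15:75048838-75049087 (minus strand) and chr15:75111972-75112221 (minus strand). The capitals of Creld2 and Alg12 are the same 19 bases, at chr15:88819520-88819538, read from either strand. This motif was found before the start in 33 of 27025 RefSeq promoters (0.122%). A match of letters is a description and not a measured binding site. The run shared by Ly6c1 and Ly6c2 is 20 bases long and lies at chr15:75048858-75048877 and chr15:75112017-75112036. RefSeq promoters were matched for 216 of the 433 members (49.9%), so no comparison of promoters over the whole chromosome was made.

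Genes of chromosome 15 stood higher in leukemic progenitors than in normal progenitors, and by nearly the same step in both phases. The median log2 difference from HPC over the 431 tested members was 0.56 in early LP and 0.51 in median LP. Over the 17 other autosomes without chromosome 8, the median was -0.06 in both comparisons, and single autosomes among these lay between -0.16 and 0.01 in early LP and between -0.13 and 0.03 in median LP. The distance of chromosome 15 from that reference was 0.62 in early LP, or 1.53-fold, and 0.57 in median LP, or 1.49-fold. Chromosome 8 was left out of the reference because its genes had a like step, with medians of 0.55 and 0.53. Both comparisons share the 3 HPC libraries, so their values are given side by side and do not support each other.

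**Figure D1:**
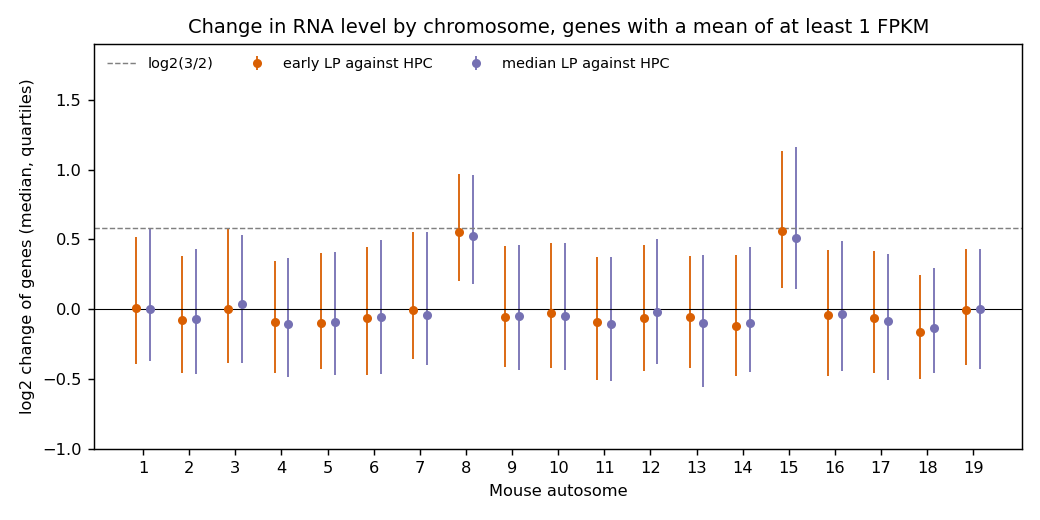
Median log2 difference from HPC (points) with the lower and upper quartile over genes (bars) for each autosome, in early LP and median LP; the dashed line is the log2 of 3 copies over 2, at 0.58. Chromosome 15 at 0.56 and 0.51 and chromosome 8 at 0.55 and 0.53 lie near that line, and the 17 other autosomes lie between -0.16 and 0.03.

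The step was present in each library. Relative to the mean of HPC, the median of the members less that of the 17 other autosomes was -0.02, 0.00 and 0.02 in HPC 1, 2 and 3. It was 0.59, 0.60 and 0.59 in early LP 1, 2 and 3, and 0.58, 0.59 and 0.58 in median LP 1, 2 and 3. The LP and HPC libraries did not overlap, and all 6 LP libraries lay between 0.58 and 0.60. These values were taken from log2(CPM + 0.5) in each library, and the distances of 0.62 and 0.57 above from the fitted differences. The 2 measures thus differ slightly, and by library the early and median LP values overlapped. Genes of chromosome 15 took 4.38 to 4.49% of all counts in HPC and 6.03 to 6.38% in LP. Ly6c2 was the most abundant member, and without it and its paralog Ly6c1 these shares were 4.31 to 4.43% and 5.39 to 5.76%.

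**Figure D2:**
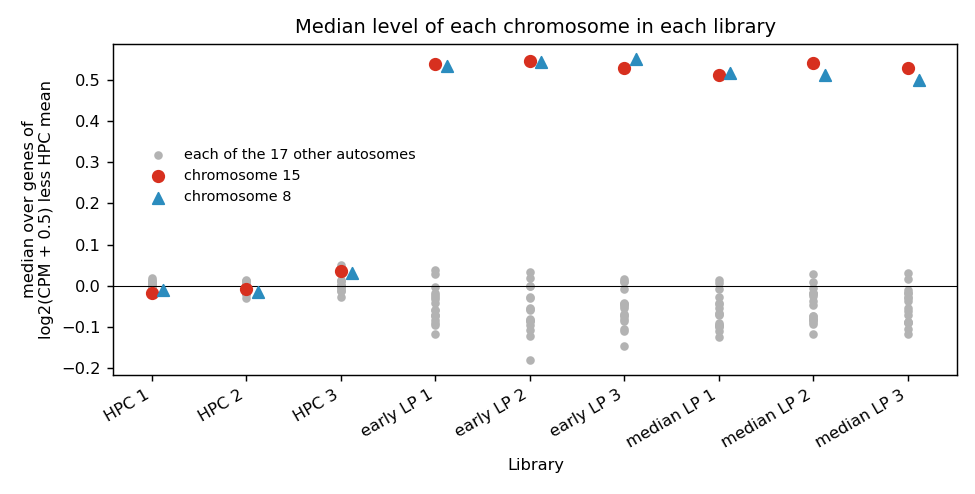
Median over genes of the log2 level in each library, log2(CPM + 0.5) less the mean of HPC, for chromosome 15, chromosome 8 and each of the 17 other autosomes. The 6 LP libraries of chromosome 15 lie between 0.51 and 0.55 while the other autosomes in LP lie between -0.18 and 0.04.

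Most members were called higher than HPC, and a minority were called lower. In early LP, 307 of the 431 tested members were called higher than HPC and 59 lower, which is 71.2% and 13.7%. Over all 12837 genes tested, 35.3% were higher and 37.9% lower. In median LP, 309 members were higher and 57 lower (71.7% and 13.2%), against 36.0% and 37.7% of all genes. Since the chromosome was chosen for such a difference, nothing is read from these shares. Without regard to the test, 349 members had a value above 0 in early LP and 82 below 0, and in median LP 346 and 85. With upper quartile scaling in place of TMM, the scaling used here, the counts were 290 and 61 in early LP and 276 and 66 in median LP.

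Depth was 20.6 to 28.4 M (mega) fragments per library. HPC 3 stood apart in long transcripts, with an index of long less short transcripts of -0.30 against -0.11 to 0.16 in the others, and the long members Mll2, Ep300, Nipbl, Cbx5 and Tnrc6b had their lowest HPC level there. Its part in their differences was not tested. For Nipbl, both calls against HPC held with each library left out (0.59 to 0.91 in early LP, 0.80 to 1.13 in median LP). For the other long members named, no such values are given. Most marker lists differed strongly between HPC and LP, as summed CPM, but the T and NK cell sums of HPC and early LP overlapped. Erythroid markers summed to 3569 to 3883 CPM in HPC, 192 to 210 in early LP and 317 to 411 in median LP, with 10 of 10 tested lower in early LP and 8 lower and 2 higher in median LP. Megakaryocyte markers (5 of 7 lower in each LP group) summed to 120.4 to 156 CPM in HPC and 4.14 to 7.12 in LP, and dendritic cell markers (6 of 6 lower in early LP, 5 lower and 1 higher in median LP) to 97.9 to 135 and 3.48 to 6.55. Basophil and mast cell markers (5 of 6 lower and 1 higher in early LP, 4 and 1 in median LP) summed to 218 to 249.6 CPM and 27.3 to 37.5, monocyte markers (4 of 5 lower and 1 higher in each) to 204 to 247 and 75.2 to 98.8, and stromal markers (2 of 4 lower and 2 higher in each) to 51.5 to 61.0 and 15.4 to 20.6. Stem and progenitor markers (7 of 8 lower and 1 higher in early LP, 7 and 0 in median LP) summed to 946 to 1013 CPM in HPC and 242 to 259.6 in LP, and promyelocyte granule markers (4 of 5 higher in each) to 13069 to 14716 CPM in HPC and 28367 to 39550 in LP. B cell markers (2 of 5 higher and 2 lower in early LP, 3 and 2 in median LP) summed to 67 to 87.4 CPM in HPC, where Pax5 was at 0, and 159.5 to 227 in LP, and T and NK cell markers (1 of 2 lower in early LP, 2 in median LP), with Cd3e and Cd8a at 0 in HPC, to 139.5 to 159 and 107 to 159. The part of these cell types in the results below was not tested.

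In windows of 10 Mb, every window of the chromosome had a median above 0 in both LP groups, but the medians were uneven. Single genes scattered widely around them. Windows of other chromosomes were not computed, so no usual spread of such medians is given. Among the windows with at least 20 members, the medians in early and median LP were 0.64 and 0.66 for 32 members at 30 to 40 Mb, and 0.61 and 0.64 for 31 members at 50 to 60 Mb. The dense stretch at 70 to 80 Mb, with 113 members, had 0.64 and 0.55, and the 89 members at 80 to 90 Mb had 0.45 and 0.42. Toward the distal end, 55 members at 90 to 100 Mb had medians of 0.64 and 0.58 and the last 50 members had 0.22 and 0.30. The other windows held 7 to 19 members each and ranged from 0.16 to 0.83 in early LP and from 0.10 to 0.91 in median LP. Between 57.1 and 93.8% of the members of a window lay above the median of the other autosomes in early LP. In the last window 11 of 50 members departed from the chromosome's own median by at least 1 log2 unit downward in both LP groups and 4 upward, against 4 and 22 of the 113 members at 70 to 80 Mb.

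**Figure D3:**
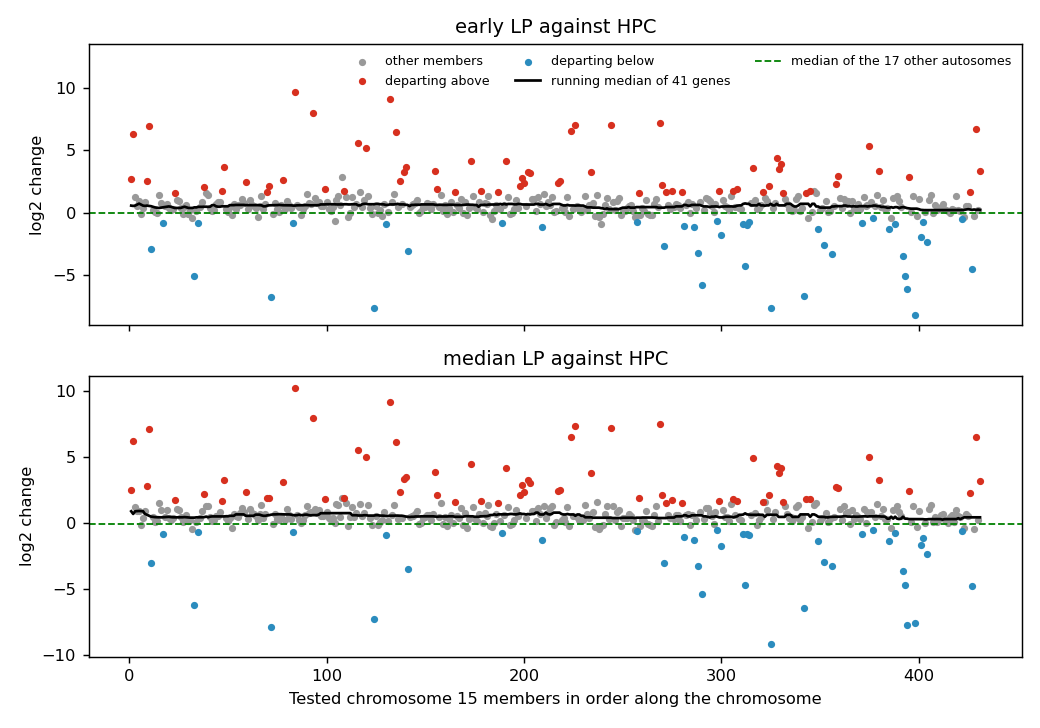
Log2 difference from HPC of the 431 tested members in order along chromosome 15 (early LP above, median LP below), with departing genes in red (above) and blue (below), a running median of 41 genes (line) and the median of the 17 other autosomes (dashed). The running median stays above the dashed line, and the blue points are more frequent toward the distal end.

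Myc, the transcription factor of cell growth for which gain of this chromosome is best known, did not share the step. At chr15:61985341-61990361, its level was 338, 372 and 348 CPM in HPC, 271, 299 and 266 in early LP, and 343, 304 and 258 in median LP. Each early LP library lay below each HPC library, while median LP 1 lay within the HPC range. In early LP Myc fell by 0.34 (SE 0.10), and in median LP the difference was -0.23 (SE 0.10), which did not pass the test. It did pass with DESeq2 (-0.22), with upper quartile scaling (-0.30) and without median LP 1 (-0.32). Per length, it remained one of the more abundant members, at a mean of 123 FPKM against a median member of 18.5 FPKM.

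Most neighbours of Myc stood higher than HPC, with Pvt1 in early LP as the exception among those named. Trib1 (chr15:59648654-59657099), a pseudokinase that directs the degradation of C/EBP proteins, had 2.14, 0.837 and 1.56 CPM in HPC, 11.1, 7.57 and 14.2 in early LP, and 7.16, 6.68 and 2.9 in median LP. All LP libraries lay above all HPC libraries, with a rise of 2.85 (SE 0.38) in early and 1.88 (SE 0.40) in median LP, and its level was low throughout. Nsmce2, a SUMO ligase of the SMC5/6 complex, rose by 0.59 (SE 0.07) in early and 0.46 (SE 0.07) in median LP, close to the median of the chromosome. Fam84b rose by 1.71 (SE 0.07) in early and 1.87 (SE 0.07) in median LP and Fam49b, an inhibitor of Rac1 signalling, by 1.23 (SE 0.08) in early and 1.20 (SE 0.08) in median LP. Asap1, an Arf GTPase-activating protein, rose by 0.43 (SE 0.09) in early and 0.42 (SE 0.09) in median LP, and Efr3a, a membrane anchor of a lipid kinase, by 0.68 (SE 0.08) in early and 0.75 (SE 0.08) in median LP. Kcnq3, a subunit of a voltage-gated potassium channel, had the largest value of the stretch, with 5.54 (SE 0.38) in early and 5.55 (SE 0.38) in median LP. Its LP libraries stood at 33.9, 20.6 and 20.5 and 16.6, 29 and 29.9 CPM, against 0.294, 0.796 and 0.507 in HPC. Pvt1, the long non-coding RNA next to Myc, whose locus overlaps that of another gene, stood at 9.81, 11.3 and 10.2 CPM in HPC, 10.1, 9.7 and 10.2 in early LP, and 12.5, 15.5 and 14 in median LP. Its early LP libraries overlapped HPC, at a difference of -0.06 (SE 0.11), and its median LP libraries lay above both, with a rise of 0.42 (SE 0.10) from HPC.

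Members were grouped by textbook role into 10 lists. All 13 tested members of the endoplasmic reticulum and secretory list rose in both LP groups, with medians of 1.30 and 1.08 on the log2 scale against 0.56 and 0.51 for the chromosome. The 6 tested members of the Ly6 family had medians of 2.91 and 2.84. Members of the receptor, adhesion and signalling list had medians of 0.83 in both. Lists of translation (0.28 and 0.24), RNA processing (0.23 and 0.19), mitochondria and metabolism (0.40 and 0.31) and blood transcription factors (0.35 and 0.47) lay under the chromosome's median. The lists of chromatin and cell division (0.50 and 0.45) and of cell death, kinases and stress signalling (0.46 and 0.54) lay close to it. The 4 tested members of the list of extracellular, keratin and Hox genes of other tissues, 2 higher and 2 lower in each LP group, had medians of -2.62 and -3.17. The counts for each list below stand beside the chromosome's own shares of 71.2% higher and 13.7% lower in early LP and 71.7% and 13.2% in median LP. The lists were drawn up with earlier results of these data known, so these medians describe the members and are no test of a pathway.

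**Figure D4:**
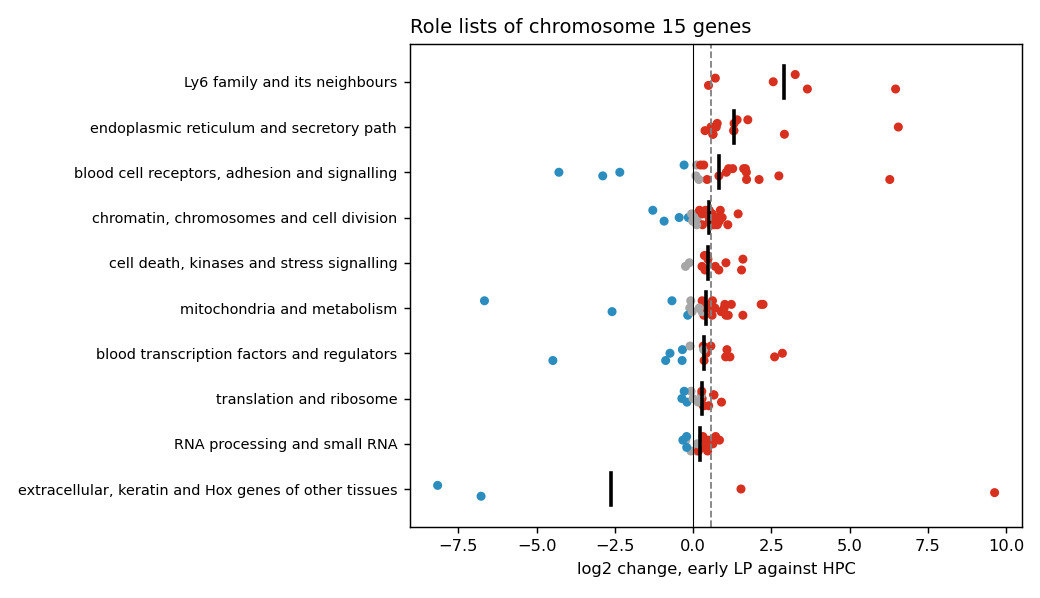
Log2 difference of early LP from HPC for each tested member of the 10 role lists (points), with members called higher in red, called lower in blue and not called in grey; black bars are list medians and the grey dashed line is the median of chromosome 15. All 13 members of the secretory list lie on the higher side, while the medians of the translation and RNA processing lists, 0.28 and 0.23, lie between 0 and the dashed line.

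Among 16 tested blood transcription factors and regulators, 9 rose and 5 fell in early LP, and 10 rose and 3 fell in median LP. Atf4, the activator of amino acid and stress response genes, stood at 229.5, 185 and 220.4 CPM in HPC, 477, 431 and 529 in early LP, and 510.2, 499 and 559 in median LP. It rose by 1.18 (SE 0.10) in early and 1.30 (SE 0.10) in median LP, with no overlap between LP and HPC libraries. Nfe2, an erythroid and megakaryocytic transcription factor, stood at 125, 125 and 153 CPM in HPC, 192, 204 and 202 in early LP, and 232, 218 and 212 in median LP. It rose by 0.57 (SE 0.08) in early and 0.72 (SE 0.08) in median LP, near the chromosome's median, while the erythroid and megakaryocyte marker sums given above were lower in every LP library than in every HPC library. Their part in the level of Nfe2 was not tested. Atf1, a CREB family activator, rose less than the chromosome's median, by 0.33 (SE 0.06) in early and 0.33 (SE 0.06) in median LP. Rarg, the retinoic acid receptor gamma, rose from 6.71, 6.7 and 6.12 CPM in HPC to 13.6, 12.9 and 13.7 in early LP and 14.3, 13.6 and 13.7 in median LP, or by 1.04 (SE 0.09) in early and 1.09 (SE 0.09) in median LP. Srebf2, the activator of cholesterol synthesis genes, rose by 1.08 (SE 0.07) in early and 1.26 (SE 0.07) in median LP. Trps1, a repressor of the GATA family, departed upward with 6.71, 6.45 and 5.19 CPM in HPC, 44.6, 32.8 and 34.2 in early LP, and 47.4, 54.9 and 55.1 in median LP. Its rise was 2.61 (SE 0.14) in early and 3.10 (SE 0.14) in median LP. In the other direction, Zfp385a, a zinc finger protein, stood at 30.1, 28.3 and 33.3 CPM in HPC, 1.22, 1.51 and 1.37 in early LP, and 1.08, 1.23 and 1.05 in median LP and fell by 4.48 (SE 0.13) in early and fell by 4.76 (SE 0.13) in median LP.

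Of 21 tested receptors, adhesion and signalling genes of blood cells, 14 rose and 4 fell in early LP, and 15 rose and 4 fell in median LP. Csf2rb (chr15:78325990-78351001), the shared signalling chain of the receptors for GM-CSF, interleukin 3 and interleukin 5, stood at 86.6, 81.9 and 69.3 CPM in HPC, 519, 552 and 519.8 in early LP, and 559, 591 and 618 in median LP. Csf2rb2, its neighbour and interleukin 3 receptor chain, stood at 16.1, 13.8 and 14.4 CPM in HPC, 61, 65.5 and 64.6 in early LP, and 59.6, 59.8 and 72.6 in median LP. Both lay far above HPC in every LP library, with rises of 2.74 (SE 0.09) in early and 2.89 (SE 0.09) in median LP for Csf2rb and 2.11 (SE 0.09) in early and 2.12 (SE 0.09) in median LP for Csf2rb2. Their transcripts share 18.9 and 19.0% of their windows of 50 bases, so the division of reads between them is uncertain. Rac2, a small GTPase of blood cells, rose by 1.06 (SE 0.09) in early and 0.91 (SE 0.09) in median LP, Myh9, the heavy chain of non-muscle myosin, by 1.27 (SE 0.10) in early and 1.24 (SE 0.10) in median LP, and Parvg, a parvin of blood cells, by 0.83 (SE 0.07) in early and 0.83 (SE 0.07) in median LP. Ncf4, a cytosolic subunit of the phagocyte oxidase, rose by 0.34 (SE 0.11) in early and 0.55 (SE 0.11) in median LP. The members that fell were led by Plxnb2, a semaphorin receptor, at 23.7, 24.9 and 25.9 CPM in HPC, 1.13, 1.55 and 1.12 in early LP and 0.786, 1.19 and 0.835 in median LP. Plxnb2 fell by 4.29 (SE 0.15) in early and fell by 4.73 (SE 0.16) in median LP, Fyb, an adaptor of T cells and platelets, fell by 2.88 (SE 0.16) in early and fell by 3.07 (SE 0.17) in median LP and Itgb7, an integrin beta chain, fell by 2.34 (SE 0.20) in early and fell by 2.33 (SE 0.20) in median LP.

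In the Ly6 family, a cluster of small surface proteins anchored by glycolipid, 6 of 6 tested members rose in early LP and 5 of 6 in median LP. Ly6c2 (chr15:75108161-75111949) stood at 558, 449 and 519 CPM in HPC, 6391, 6236 and 6556 in early LP, and 5798, 5656 and 6017 in median LP, and per length it was the most abundant member of the chromosome, at 7028 FPKM. It rose by 3.65 (SE 0.10) in early and 3.52 (SE 0.10) in median LP. Ly6c1 stood at 68.3, 33.1 and 39.7 CPM in HPC, 359, 297 and 699.7 in early LP, and 543, 413 and 469 in median LP, a rise of 3.26 (SE 0.34) in early and 3.34 (SE 0.34) in median LP. No LP library of either gene reached down to HPC, and early LP 3 was the highest library for both. The transcripts of Ly6c1 and Ly6c2 share 31.7 and 32.6% of their windows of 50 bases, so reads may be split between them. Ly6k stood at 0.419, 0.544 and 0.78 CPM in HPC, 52.9, 54.2 and 50.02 in early LP, and 40.1, 41.9 and 42.5 in median LP and rose by 6.47 (SE 0.13) in early and 6.13 (SE 0.13) in median LP, from near absence. Ly6e, an interferon-induced member, rose by 0.49 (SE 0.08) in early and 0.32 (SE 0.08) in median LP, close to the chromosome's median in early LP and under it in median LP. Ly6a, the Sca-1 antigen of mouse stem cells, was low, at 0.797, 1.3 and 1.25 CPM in HPC, 1.7, 1.76 and 2.04 in early LP, and 0.993, 1.58 and 1.71 in median LP. It rose by 0.71 (SE 0.26) in early LP, a call that ended without HPC 1 or early LP 3 (0.54 and 0.62), and stood 0.35 (SE 0.27) from HPC in median LP, which did not pass the test.

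Of 15 tested translation genes, 8 rose, 3 fell and 4 did not pass the test, in each LP group. They lay between -0.36 and 0.91 in early LP, and none was a departing member. The highest was Utp23, which takes part in making the small ribosomal subunit, with a rise of 0.91 (SE 0.08) in early and 1.06 (SE 0.08) in median LP. Rpl3, a protein of the large ribosomal subunit, stood at 1872, 1939 and 2584 CPM in HPC, 1493, 1700.1 and 1800.2 in early LP, and 1778, 1489 and 1479 in median LP and fell by 0.36 (SE 0.13) in early and fell by 0.43 (SE 0.13) in median LP. The call for early LP ended without HPC 3 (-0.20), early LP 1 (-0.28) or early LP 2 (-0.37), with TMM computed without chromosomes 8, 15, X and Y (-0.29) and with limma on either log2(FPKM) scale (-0.37). Rpl8, of the same subunit, was at 0.27 (SE 0.12) and 0.12 (SE 0.12), and neither passed the test, although the first did without HPC 3 (0.42) or early LP 1 (0.35) and the second without HPC 3 (0.28). The first also passed with DESeq2 (0.27) and with TMM computed without those chromosomes (0.33). Pabpc1, which binds the poly(A) tail, rose by 0.29 (SE 0.10) in early and 0.27 (SE 0.10) in median LP. Its calls ended without early LP 2 or early LP 3 (0.28 and 0.24) in early LP, and without HPC 1, HPC 2 or median LP 1 (0.27, 0.27 and 0.17) in median LP. Both also ended with upper quartile scaling (0.22 and 0.19) and limma (0.25 and 0.19). Eif3h, a subunit of initiation factor 3, rose by 0.33 (SE 0.08) in early and 0.24 (SE 0.08) in median LP, and its call in median LP ended without HPC 1, HPC 2 or median LP 1 (0.20, 0.21 and 0.22), with upper quartile scaling (0.15) and with limma (0.20). Eif4b, a cofactor of the cap-binding helicase, fell by 0.28 (SE 0.07) in early and fell by 0.30 (SE 0.07) in median LP.

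Of 19 RNA processing genes, 12 rose and 3 fell in early LP, and 11 rose and 3 fell in median LP. Hnrnpa1, a splicing repressor in a shared locus, fell by 0.32 (SE 0.10) in early and fell by 0.38 (SE 0.10) in median LP, with the early LP call lost without early LP 1 (-0.27). Nhp2l1, a protein of the small nucleolar and spliceosomal particles, fell by 0.20 (SE 0.06) in early and fell by 0.23 (SE 0.06) in median LP, with the early LP call lost without early LP 2 (-0.17) and with TMM computed without chromosomes 8, 15, X and Y (-0.14). Ddx17, an RNA helicase whose locus is shared with Kdelr3, rose by 0.28 (SE 0.11) in early and 0.55 (SE 0.11) in median LP. Its early LP call ended without HPC 3, early LP 1 or early LP 2 (0.20, 0.22 and 0.30), with upper quartile scaling (0.21) and with limma (0.23). Pcbp2, a poly(C)-binding protein, rose by 0.23 (SE 0.07) in early LP and was at 0.14 (SE 0.07) in median LP, which passed the test without HPC 3 (0.18), with DESeq2 (0.14) and with TMM computed without those chromosomes (0.20). Its early LP call ended with upper quartile scaling (0.16) and limma (0.17). In contrast to these abundant genes, Puf60, a splicing factor, rose by 0.72 (SE 0.07) in early and 0.67 (SE 0.07) in median LP.

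Of 31 chromatin and cell division genes, 21 rose and 4 fell in early LP, and 22 rose and 3 fell in median LP. Rad21 (chr15:51962604-51991760), the cohesin subunit that closes the ring around sister chromatids, stood at 319, 323 and 327 CPM in HPC, 503, 472 and 504 in early LP, and 528, 489 and 489 in median LP. It rose by 0.61 (SE 0.06) in early and 0.64 (SE 0.06) in median LP, within 0.15 of the chromosome's median, with no overlap of libraries. Nipbl, the loader of cohesin, stood at 198, 199.9 and 126 CPM in HPC, 368, 256 and 272 in early LP, and 281, 377 and 383 in median LP, lowest in HPC 3, and rose by 0.78 (SE 0.19) in early and 0.99 (SE 0.19) in median LP. The alpha tubulins of the list differed from each other. Tuba1b, the most abundant, stood at 1258, 1310.0 and 1522 CPM in HPC, 1228, 1442 and 1384 in early LP, and 1364, 1256 and 1328 in median LP, and its values of -0.01 (SE 0.09) and -0.05 (SE 0.09) did not pass the test. Tuba1c rose by 0.29 (SE 0.08) in early and 0.32 (SE 0.08) in median LP, with the early LP call lost with limma (0.24 and 0.25), and Tuba1a by 0.93 (SE 0.18) in early and 0.97 (SE 0.18) in median LP. Cbx7, a subunit of Polycomb repressive complex 1, rose by 1.44 (SE 0.11) in early and 1.63 (SE 0.11) in median LP. Hdac7, a class II histone deacetylase in a shared locus, fell by 1.29 (SE 0.07) in early and fell by 1.40 (SE 0.07) in median LP, and Hdac10 fell by 0.92 (SE 0.08) in early and fell by 0.80 (SE 0.08) in median LP.

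Of 28 mitochondrial and metabolic genes, 19 rose and 4 fell in early LP, and 19 rose and 5 fell in median LP. Respiratory chain members lay near or under the chromosome's median. Cox6c, of cytochrome c oxidase, rose by 0.61 (SE 0.16) in early and 0.48 (SE 0.16) in median LP, with the median LP call lost without HPC 2 (0.37), and Ndufb9, of complex I, rose by 0.49 (SE 0.10) in early and 0.36 (SE 0.10) in median LP. Atp5g2, the ring subunit of ATP synthase, was at 0.20 (SE 0.11) and 0.09 (SE 0.11), neither of which passed the test. Both did without HPC 3 (0.34 and 0.23), and the first also with TMM computed without chromosomes 8, 15, X and Y (0.26). Tspo, a cholesterol-binding protein of the outer mitochondrial membrane, rose by 0.70 (SE 0.07) in early and 0.58 (SE 0.07) in median LP. Sqle, which makes the epoxide of squalene on the way to cholesterol, stood at 39.97, 36 and 38.6 CPM in HPC, 78, 78.6 and 75 in early LP, and 99.2, 101 and 107 in median LP and rose by 1.02 (SE 0.06) in early and 1.42 (SE 0.06) in median LP. Arsa, a lysosomal sulfatase, rose by 2.18 (SE 0.10) in early and 2.10 (SE 0.10) in median LP.
Amino acid transporters of the list went opposite ways. Slc38a1 (chr15:96571418-96642913), a neutral amino acid transporter, stood at 184, 186 and 142 CPM in HPC, 1.65, 1.8 and 1.58 in early LP, and 1.57, 2.07 and 2.15 in median LP. Every LP library lay far below HPC, and it fell by 6.66 (SE 0.15) in early and fell by 6.47 (SE 0.15) in median LP. Its neighbour Slc38a2 (chr15:96687392-96699698), of the same family, stood at 247, 272 and 213 CPM in HPC, 761, 715 and 733 in early LP, and 837, 798 and 967 in median LP. All LP libraries of Slc38a2 lay above HPC, and it rose by 1.59 (SE 0.10) in early and 1.83 (SE 0.10) in median LP. Pfkm, the muscle type of phosphofructokinase in glycolysis and a gene in a shared locus, fell by 2.59 (SE 0.08) in early and fell by 2.93 (SE 0.08) in median LP.

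In the secretory list every tested member rose in both LP groups. Creld2 stood at 62.2, 64.9 and 55.4 CPM in HPC, 192, 208 and 214 in early LP, and 221, 208 and 231 in median LP, and Alg12, across the shared promoter stretch printed above, at 17.7, 16.5 and 15.3 CPM in HPC, 38.5, 42.4 and 42 in early LP, and 42.8, 43.7 and 46.9 in median LP. In both genes each LP library lay above each HPC library, and the rises were 1.75 (SE 0.08) in early and 1.85 (SE 0.08) in median LP for Creld2 and 1.31 (SE 0.08) in early and 1.43 (SE 0.08) in median LP for Alg12. Fkbp11, a peptidyl-prolyl isomerase of secretory cells, stood at 9.35, 8.58 and 7.92 CPM in HPC, 59, 66.1 and 70.4 in early LP, and 60.8, 54.9 and 50.2 in median LP, a rise of 2.92 (SE 0.10) in early and 2.68 (SE 0.10) in median LP. Kdelr3, a receptor that returns proteins to the endoplasmic reticulum, stood at 0.294, 0.419 and 0.195 CPM in HPC, 28.7, 28.2 and 29.4 in early LP, and 29.9, 28.1 and 25.6 in median LP. It rose by 6.56 (SE 0.16) in early and 6.51 (SE 0.16) in median LP, far more than Ddx17, with which it has a common locus in the table. Tmbim6, an inhibitor of cell death at this membrane, rose by 1.30 (SE 0.08) in early and 1.08 (SE 0.08) in median LP, Grina by 1.41 (SE 0.07) in early and 1.52 (SE 0.07) in median LP, Vps28, of the ESCRT sorting machinery, by 1.31 (SE 0.08) in early and 1.24 (SE 0.08) in median LP and Derl1, of the export of misfolded proteins, by 0.77 (SE 0.06) in early and 0.75 (SE 0.06) in median LP. Copz1, of the COPI coat, rose by 0.57 (SE 0.07) in early and 0.53 (SE 0.07) in median LP, close to the chromosome's median.

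Of 12 tested genes of cell death, kinases and stress signalling, 10 rose and none fell in each LP group, where 71.2% of all tested members were called higher in early LP. Ywhaz, a 14-3-3 adaptor, stood at 372, 385 and 358 CPM in HPC, 719, 781 and 812 in early LP, and 841, 712 and 738 in median LP and rose by 1.05 (SE 0.08) in early and 1.04 (SE 0.08) in median LP. Dap, a death-associated protein, rose by 1.55 (SE 0.08) in early and 1.31 (SE 0.08) in median LP, and Tob2, of the antiproliferative BTG and TOB family, by 1.59 (SE 0.07) in early and 1.86 (SE 0.07) in median LP. Maf1, the repressor of RNA polymerase III, rose by 0.82 (SE 0.09) in early and 0.63 (SE 0.09) in median LP. Pim3, a serine/threonine kinase of cell survival, stood at 27.1, 23.9 and 28 CPM in HPC, 34.2, 35.3 and 38.6 in early LP, and 41.6, 43.1 and 38.3 in median LP. Its rise of 0.45 (SE 0.08) in early and 0.64 (SE 0.08) in median LP was near the chromosome's median.

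Some members followed the step closely. Within 0.15 log2 units of the chromosome's median in both LP groups were 51 members, with a median level of 27.8 FPKM. The most abundant of these, beside Rad21, Cox6c, Tspo and Copz1, were Pfdn5, a prefoldin subunit that hands proteins to the cytosolic chaperonin, and Ndufa6 of complex I. Pfdn5 rose by 0.58 (SE 0.09) in early and 0.48 (SE 0.09) in median LP and Ndufa6 by 0.62 (SE 0.13) in early and 0.62 (SE 0.13) in median LP. Golph3, a Golgi protein, rose by 0.63 (SE 0.06) in early and 0.62 (SE 0.06) in median LP, Bop1, a ribosome assembly factor, by 0.62 (SE 0.07) in early and 0.51 (SE 0.07) in median LP and Rrp7a, of ribosomal RNA processing, by 0.66 (SE 0.08) in early and 0.58 (SE 0.08) in median LP. The uncharacterised 2310016M24Rik rose by 0.57 (SE 0.14) in early and 0.49 (SE 0.14) in median LP. Bop1 and Rrp7a lie in shared loci.

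The scatter of members around their own median was wide, as it was on the other autosomes. The range between quartiles in early LP was 0.98 log2 units on chromosome 15, 0.87 on the 17 other autosomes and 0.77 on chromosome 8. Within 0.25 of their own median lay 29.9% of chromosome 15 members and 32.4% of genes of the other autosomes. At least 1 log2 unit above it lay 71 members (16.5%, against 13.4%), and at least 1 unit below it 44 members (10.2%, against 8.21%). In median LP the quartile ranges were 1.01 and 0.90. Departing members were those at least 1 log2 unit from the chromosome's median on the same side in both LP groups, with no overlap of LP and HPC libraries once the step was taken off. There were 67 above and 41 below. These members were selected by the same values that follow, which are therefore descriptions.

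Departing genes above the step ranged from genes close to silent in HPC to genes that HPC also expressed. Of the 67, 25 were under 1 FPKM in HPC, 14 were at least 5 log2 units higher in early LP, and 20 stood in the role lists. Those 25 passed the threshold for members only through their LP libraries. Nov (chr15:54745928-54753761), a matricellular growth regulator of the CCN family, stood at 0.21, 1.38 and 0.546 CPM in HPC, 535, 605 and 563 in early LP, and 992, 758 and 825 in median LP. Without HPC 2, the highest HPC library, its rise of 9.63 (SE 0.31) in early and 10.23 (SE 0.31) in median LP became 10.54 and 11.13. Dab2, a clathrin adaptor, stood at 1.51, 2.01 and 0.897 CPM in HPC, 188, 176 and 169 in early LP, and 216, 206 and 185 in median LP and rose by 6.92 (SE 0.18) in early and 7.11 (SE 0.18) in median LP. Fam83a stood at 0.294, 0.251 and 0.234 CPM in HPC, 59.99, 66.8 and 71.4 in early LP, and 74.9, 66.6 and 60.04 in median LP and rose by 7.97 (SE 0.16) in early and 7.99 (SE 0.16) in median LP. For Nov, Dab2 and Fam83a alike, HPC was low in every library and LP was high in every library.
Ghr, the growth hormone receptor, stood at 0.252, 0.586 and 0.468 CPM in HPC, 33.3, 33 and 36.9 in early LP, and 32.5, 31.7 and 35.6 in median LP and rose by 6.29 (SE 0.16) in early and 6.24 (SE 0.16) in median LP. Dmc1, the recombinase of meiosis, stood at 0.21, 0.251 and 0.156 CPM in HPC, 27.4, 27.9 and 26.3 in early LP, and 38.3, 33.7 and 31.6 in median LP and rose by 7.02 (SE 0.16) in early and 7.36 (SE 0.16) in median LP. Again no library of LP came near HPC. Wbp2nl held 3 recovered fragments in all of HPC, and its level in early LP was 160.2 times higher (exact 95% interval 54.5 to 779.7, counting error only) and in median LP 202 times (68.9 to 983). The adhesion receptor Bai1 likewise held 3 fragments in HPC and stood 609 times (208 to 2957) and 659 times (225 to 3197) higher. Bai1 was named after its values had been seen.
Slc39a4, a zinc importer, rose by 4.10 (SE 0.15) in early and 4.48 (SE 0.15) in median LP, from 1.55, 1.05 and 1.99 CPM in HPC. Cpne8, a copine that binds membranes in a calcium-dependent way, rose by 4.35 (SE 0.10) in early and 4.34 (SE 0.10) in median LP and reached 105, 111 and 126 CPM in early LP. Faim2, an inhibitor of Fas signalling, rose by 5.31 (SE 0.13) in early and 5.0 (SE 0.13) in median LP. In these 3 genes too, the lowest LP library lay above the highest HPC library.

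**Figure D5:**
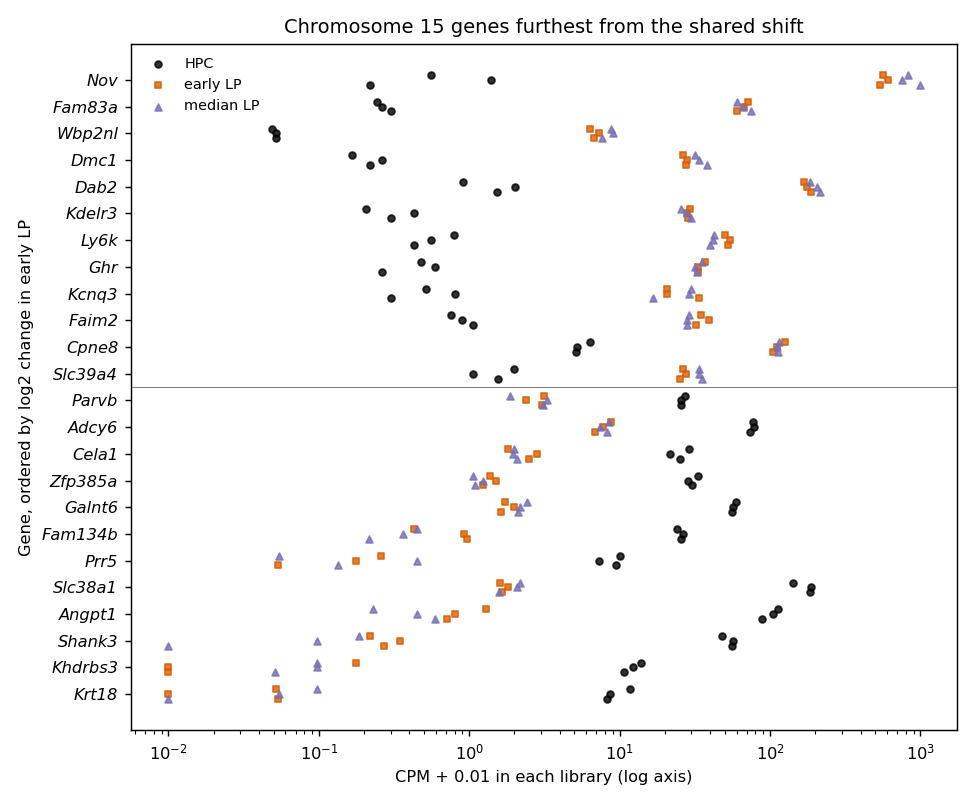
Level of 24 departing genes in each of the 9 libraries, as CPM + 0.01 on a log axis, the 12 furthest above and the 12 furthest below the chromosome's median in early LP under the rule for named genes. In every gene shown the 6 LP libraries lie on 1 side of the 3 HPC libraries, and Nov runs from 0.21 CPM in HPC 1 to 992 in median LP 1.

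Departing genes below the step numbered 41, against 67 above it. The threshold of 1 FPKM is a mean over 9 libraries, most of them LP, so genes high only in LP pass it more easily. With a threshold of 0.1 FPKM there were 81 above and 59 below, and with 5 FPKM 48 and 17. Nothing is read from the difference. Each of the 41 passed the test as lower than HPC in both LP groups. Of these, 15 were under 1 FPKM in both LP groups and passed the threshold only through HPC. Angpt1 (chr15:42424725-42676795), angiopoietin 1, the ligand of the Tie2 receptor, stood at 88, 105 and 113 CPM in HPC, 0.697, 0.795 and 1.29 in early LP, and 0.579, 0.44 and 0.22 in median LP. It fell by 6.77 (SE 0.19) in early and fell by 7.92 (SE 0.21) in median LP. Shank3, a scaffold protein best known from synapses, stood at 55.9, 56.6 and 47.9 CPM in HPC, 0.261, 0.335 and 0.208 in early LP, and 0, 0.0879 and 0.176 in median LP and fell by 7.61 (SE 0.21) in early and fell by 9.19 (SE 0.25) in median LP. The value in median LP was -8.60 without median LP 1 and -10.13 without median LP 3. Galnt6, which starts mucin-type sugar chains, stood at 56, 57.1 and 59.7 CPM in HPC, 1.61, 1.97 and 1.71 in early LP, and 2.11, 2.15 and 2.42 in median LP and fell by 5.03 (SE 0.10) in early and fell by 4.69 (SE 0.10) in median LP. Every LP library of these 3 genes lay below every HPC library.
Fam134b, a receptor for the turnover of endoplasmic reticulum, fell by 5.05 (SE 0.20) in early and fell by 6.24 (SE 0.23) in median LP. Prr5, a subunit of the mTORC2 kinase complex, stood at 9.44, 7.24 and 9.98 CPM in HPC, 0.0435, 0.167 and 0.25 in early LP, and 0.124, 0.44 and 0.044 in median LP and fell by 5.79 (SE 0.41) in early and fell by 5.43 (SE 0.40) in median LP, or by 6.62 in median LP without median LP 2. Adcy6, an adenylyl cyclase, stood at 74, 77.8 and 77.2 CPM in HPC, 6.88, 7.78 and 8.79 in early LP, and 8.28, 7.34 and 8.44 in median LP and fell by 3.29 (SE 0.09) in early and fell by 3.25 (SE 0.09) in median LP. HPC and LP did not overlap in any of these 3. Cela1, an elastase, fell by 3.42 (SE 0.16) in early and fell by 3.66 (SE 0.17) in median LP, and Parvb, beta-parvin of focal adhesions, fell by 3.20 (SE 0.17) in early and fell by 3.25 (SE 0.17) in median LP, whereas its neighbour Parvg rose as given above.
The remaining 2 genes named by the rule were almost absent from LP. Krt18, a keratin of simple epithelia, held 2 (early LP) and 3 (median LP) recovered fragments, and HPC stood 362 times (exact 95% interval 99.8 to 2993) and 260.1 times (88.6 to 1264) higher. Khdrbs3, an RNA-binding protein of the STAR family, held 3 fragments in early LP, and HPC stood 309 times higher (105 to 1499.6). In median LP it fell by 7.32 (SE 0.39).

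Subunits of complexes that are encoded partly on chromosome 15 were set beside their partners elsewhere. These complexes were chosen after the data had been seen. The 4 subunits of initiation factor 3 on chromosome 15 had median log2 differences of 0.22 (early LP) and 0.16 (median LP), against -0.15 and -0.29 for the 8 subunits elsewhere. On chromosome 15, Eif3d was at 0.28, Eif3e at -0.06, Eif3h at 0.33 and Eif3l at 0.16 in early LP, and the 8 others ranged from -0.59 to 0.13. Of cohesin and its loader, Rad21 and Nipbl were at 0.61 and 0.78 in early LP and the 7 genes on chromosomes other than 15 and 8 had a median of -0.08, between -0.56 and 0.01. Tomm22, of the outer mitochondrial membrane translocase, was at 0.29 against a median of -0.52 for 5 subunits elsewhere without chromosome 8. Ep300, the p300 acetyltransferase, was at 0.52 and its partner Crebbp on chromosome 16 at 0.04. Cyc1 of respiratory complex III was at -0.07 (SE 0.09) in early LP, which did not pass the test, against a median of -0.35 for 8 partners. In median LP Cyc1 fell by 0.24 (SE 0.09), against a median of -0.54 for these partners. That call held in 12 of 17 alternative fits. Xrcc6, of the Ku complex that binds DNA breaks, was at -0.15 (SE 0.06). Its partners were Xrcc5 on chromosome 1 at -1.61 and Prkdc on chromosome 16 at -0.08, with a median of -0.85. The early LP call of Xrcc6 held in 8 of 17 alternative fits, and leaving out any of 6 single libraries ended it. In these 6 of the 7 complexes compared, the chromosome 15 subunits stood higher than the median of their partners. In the seventh they stood lower than that median. The chromosome was chosen because its genes stood higher in LP, so this outcome was largely set by that choice. Nothing is read from the count.

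Departing genes were less abundant than the followers, with median levels of 10.2 FPKM above the step and 4.73 FPKM below it against 27.8 FPKM. Members were split by mean level into 4 bands of about 108. The median difference in early LP was 0.65, 0.45, 0.56 and 0.61 from the lowest to the highest band, and genes of the other autosomes at the same levels had medians between -0.07 and -0.05. The range between quartiles was 2.19 in the lowest band and 0.98, 0.74 and 0.86 in the others. Of the departing genes above the step, 24 lay in the lowest band and 14 in the highest, and of those below it 27 and 1. Level here is a mean over all libraries, most of them LP, and departures were taken from the same libraries. A gene far lower in LP thus has a low mean, so the levels and bands of departing genes are partly set by the selection. Transcript GC content had a median of 53.1% over all members, 53.6% in the 51 followers, 52.9% in the genes above and 54.2% in the genes below. Median transcript length was 2654 bases over all members, and 2476, 2817 and 3164 bases in the same sets. The median position was 79.1 Mb over all members, 78.4 Mb for followers and for genes above, and 89.2 Mb for genes below.

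The comparison of median with early LP was not used to choose the chromosome, so it was tested, and it asks what changed between the 2 phases of disease. The median log2 difference of the members was -0.021, against -0.0037 over the 17 other autosomes, which singly ranged from -0.035 to 0.037. Of 431 tested members, 8 rose and 2 fell (1.86% and 0.464%) by edgeR's quasi-likelihood test with Benjamini-Hochberg adjustment, against 1.48% and 0.997% of all genes tested. At an unadjusted p under 0.05 there were 33 higher and 42 lower. DESeq2 called 16 higher and 8 lower, and limma on log2(FPKM + 1) called 3 each way. Without HPC 3 the counts rose to 16 and 10, and with any 1 of the 6 LP libraries left out they were 2 to 4 higher and 0 to 2 lower.

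Mtss1 and Sqle were the members whose calls held in each alternative run. Mtss1 (chr15:58941234-59082026), which links actin to curved membranes, stood at 35.6, 36.1 and 32.9 CPM in HPC, 22.7, 21.1 and 21.4 in early LP, and 34.4, 34.9 and 33.8 in median LP. The 3 median LP libraries lay above the 3 early LP libraries, a rise of 0.66 (SE 0.07) (adjusted p = 0.000827), and within the HPC range. In early LP Mtss1 fell by 0.68 (SE 0.07) against HPC, whereas median LP was at -0.02 (SE 0.07). Sqle rose from early to median LP by 0.41 (SE 0.06) (adjusted p = 0.00539), with the libraries given above in order HPC, early LP and median LP and no overlap between neighbouring groups.
Klf10, a transcription factor induced by TGF-beta, stood at 29.2, 36.1 and 32.1 CPM in HPC, 26, 26.8 and 23.6 in early LP, and 42.5, 34.4 and 36.4 in median LP. It rose by 0.57 (SE 0.10) between the phases (adjusted p = 0.0147), and the call ended without early LP 2, early LP 3 or median LP 1 (0.0514 to 0.0948). Against HPC Klf10 fell by 0.35 (SE 0.10) in early LP, a call that ended without HPC 2 (-0.24). In median LP it was at 0.22 (SE 0.10), which passed the test without HPC 2 (0.32) or median LP 2 (0.29) and with TMM computed without chromosomes 8, 15, X and Y (0.28).
Nrbp2, a pseudokinase, stood at 0.923, 1.17 and 1.48 CPM in HPC, 11.8, 11.8 and 12.1 in early LP, and 16.5, 18.1 and 18.5 in median LP and rose by 0.57 (SE 0.11) between the phases (adjusted p = 0.0225). Rnd1, a small GTPase, stood at 5.24, 3.6 and 4.02 CPM in HPC, 21.2, 19.6 and 22.3 in early LP, and 30.04, 27.6 and 29.6 in median LP and rose by 0.47 (SE 0.11) (adjusted p = 0.0466). H1f0, the replacement linker histone, stood at 67.8, 64 and 75.6 CPM in HPC, 107, 113 and 103 in early LP, and 182, 158 and 123 in median LP and rose by 0.52 (SE 0.12) (adjusted p = 0.0482). In Nrbp2 and Rnd1 the order was HPC, early LP and median LP without overlap. The call of Nrbp2 ended when early LP 1, 2 or 3 or median LP 2 or 3 was left out (0.0663 to 0.104), that of Rnd1 without any 1 of the 6 LP libraries (0.107 to 0.202), and that of H1f0 without HPC 1 or 2, any early LP library or median LP 1 or 2 (0.0545 to 0.189).
The 4 other called members were named after their values had been seen. Pvt1, with the levels given beside Myc, rose by 0.48 (SE 0.11) (adjusted p = 0.0356), and Smug1, a DNA glycosylase that removes uracil, rose by 0.35 (SE 0.08) (adjusted p = 0.0466). Slc4a8, a bicarbonate transporter, stood at 4.82, 3.89 and 4.64 CPM in HPC, 30.5, 32.7 and 32.2 in early LP, and 23.8, 22.5 and 24 in median LP and fell by 0.44 (SE 0.08) (adjusted p = 0.0186). Nckap5l stood at 6.88, 6.28 and 6.16 CPM in HPC, 8.36, 10.2 and 9.25 in early LP, and 6.66, 6.2 and 5.98 in median LP and fell by 0.56 (SE 0.12) (adjusted p = 0.0305), to levels that overlapped HPC. Each of these 4 calls ended when certain single libraries were left out. These were any early LP library or median LP 2 or 3 for Pvt1 (0.0890 to 0.168), each library but HPC 3 for Smug1 (0.0521 to 0.169), early LP 2 or 3 or median LP 1 or 2 for Slc4a8 (0.0562 to 0.103), and early LP 2 or 3 or any median LP library for Nckap5l (0.0663 to 0.143). With limma on log2(FPKM + 0.1), the calls of Klf10, Nrbp2, Rnd1, H1f0, Pvt1, Smug1, Slc4a8 and Nckap5l all ended (adjusted p from 0.0569 to 0.171), and on log2(FPKM + 1) those of these genes other than Nrbp2 and Slc4a8 did (0.0599 to 0.174). Upper quartile scaling ended the calls of Rnd1, H1f0 and Smug1 (0.0539 to 0.0584), TMM computed without chromosomes 8, 15, X and Y that of H1f0 (0.0504) and the fit with no filter on low counts that of Smug1 (0.0575). Of the genes that led the departures from HPC, Nov was at 0.60 (SE 0.19) between the phases (adjusted p = 0.138), a call gained without HPC 2, and Angpt1 at -1.15 (SE 0.37) (adjusted p = 0.147), which passed with DESeq2 (0.0240). Myc, at 0.11 (SE 0.10) (adjusted p = 0.588), and Csf2rb, at 0.15 (SE 0.08) (adjusted p = 0.388), did not pass the test.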

How the data were processed

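RNA was extracted with Trizol and made into libraries with the Illumina TruSeq kit, per the labels' protocols. The submitters' processing notes name TopHat2 2.0.6 and the build mm10. The sources used here do not give the program that quantified transcripts or say whether it used strand. The table gives 1 column of FPKM and 1 of estimated counts per library and the length of each transcript, all made by the authors, per the file headers. The deposited estimated counts totalled 21.9 to 25.8 M per library. Their low values were whole multiples of 1 step per library (89.7 to 91.3% whole within a tolerance of 0.05), and division by it gave recovered fragments, 20.6 to 28.4 M. This depth sets the precision of low genes, and intervals cover counting error only.

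Transcripts were summed by gene symbol. Estimated counts were rounded to whole numbers and tested with edgeR's quasi-likelihood test (edgeR 4.0.16, R 4.3.3) with TMM scaling and filterByExpr, in 1 fit of all 9 libraries without covariates. It tested 12837 genes at a biological coefficient of variation of 9.81%, with Benjamini-Hochberg adjustment over all of them, two-sided, and was tested on simulated data. The design held branches for counts and for FPKM, and the branch for counts was taken. Levels are TMM-scaled CPM, listed in the order of libraries 1, 2 and 3, and changes are log2 with a standard error (SE). Where a group held 3 fragments or fewer, the ratio with an exact 95% interval is given. Coordinates are those of the table on mm10, counted from 1. Of the members, 70 have a locus in common with another gene of the table and 8 carry 2 gene identifiers, and their values are uncertain.

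Groups follow the labels. The members, the role lists and the marker lists were chosen with earlier results of these data known. Named were the 12 departing members furthest above and the 12 furthest below the chromosome's median in early LP and the 6 each way in median LP (at least 5 FPKM in the higher group, no predicted genes), the 10 most abundant followers, the 4 most abundant members of each role list, the 6 largest called changes each way between LP groups at 5 FPKM or more, a fixed set (Myc, Trib1, Rad21, Rarg, Csf2rb, Csf2rb2, Nov, Ly6c1, Ly6c2, Nfe2, Creld2 and Pim3) and the genes at the threshold. Other list members and the neighbours of Myc were named after their values had been seen. Alternatives were DESeq2 1.42.0, other scalings, limma 3.58.1 on FPKM, other filters, recovered fragments, members without shared loci, the replicate block and each library left out. The values of the seventh complex compared, the only one in which the chromosome 15 subunits stood lower, are not reported here.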

Additional observations from a re-analysis of the deposited data

Results flagged for a closer look

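The difference from HPC was not the same in both LP groups for 10 members, by edgeR's test of median against early LP (Benjamini-Hochberg adjusted p under 0.05). The log2 difference of median from early LP was 0.66 for Mtss1, 0.57 for Nrbp2, 0.57 for Klf10, 0.52 for H1f0, 0.48 for Pvt1, 0.47 for Rnd1, 0.41 for Sqle and 0.35 for Smug1, with 3 of 3 median LP libraries above the 3 early LP libraries in each. It was -0.56 for Nckap5l and -0.44 for Slc4a8, with 3 of 3 below. The calls of Mtss1 and Sqle held with each library left out (adjusted p up to 0.00782 and 0.0390), and the other 8 each ended in at least 3 of these fits.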

How the results depend on the processing

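The 3 distances of chromosome 15 from the other autosomes kept their sign under each alternative run. The distance of chromosome 15 from the other autosomes in early LP was 0.58 with limma on log2(FPKM + 1), 0.58 for members of at least 5 FPKM and 0.61 for those of at least 0.1 FPKM. In median LP it was 0.54 with limma on log2(FPKM + 1), 0.59 on log2(FPKM + 0.1), 0.59 for members of at least 0.1 FPKM and 0.60 without shared loci. With members of at least 5 FPKM, which leaves fewer genes, 35 and 33 were called lower in early and median LP and 17 lay below the step. For median against early LP, DESeq2 called 16 higher and 8 lower, upper quartile scaling 5 higher and 2 lower, limma 3 higher and 3 lower (log2(FPKM + 1)) or 2 and 2 (log2(FPKM + 0.1)), and the threshold of 5 FPKM 5 higher and 0 lower; the cause was not tested.

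With 1 library left out, the distance was 0.59 to 0.65 in early LP, 0.57 to 0.61 in the median phase and -0.036 to -0.011 between them. The counts were 292 to 316 higher and 53 to 59 lower in early LP, 294 to 315 and 53 to 56 in the median phase, and 2 to 16 and 0 to 10 between the LP groups. Departing genes numbered 60 to 69 above and 40 to 41 below.

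Same-numbered libraries did not deviate together (correlations of deviations from the group means of -0.21 to 0.12), so the numbers were not taken as a pairing. With the replicate block, 305 members were called higher and 57 lower in early LP, 303 and 55 in the median phase, and 4 higher and 1 lower between the LP groups, and the distances were 0.62, 0.58 and -0.02. Among named genes, the block ended the calls between the LP groups of Rnd1, Pvt1, Nckap5l, H1f0 and Smug1 (adjusted p from 0.0574 to 0.116, edgeR). Against HPC it ended the calls of Pabpc1 and Cyc1 in median LP (log2 differences of 0.27 and -0.23). It also ended those of Xrcc6 and Smug1 in early LP (-0.15 and 0.21), while Myc in median LP passed with it (-0.23).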

Other observations

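Further groups of members that depart from the step are given here as values. They were picked after their values had been seen, so they are no sample of the chromosome. Genes that handle selenium, sulfur and oxidants were among those above it. Sepp1, the selenium carrier selenoprotein P, stood at 63.7, 67.8 and 80.4 CPM in HPC, 451, 489 and 474 in early LP, and 415, 372 and 406 in median LP, a rise of 2.74 (SE 0.09) in early and 2.49 (SE 0.09) in median LP. Oxr1, an oxidation resistance protein, stood at 133, 127 and 108 CPM in HPC, 549, 531 and 554 in early LP, and 453, 460.4 and 452 in median LP, a rise of 2.15 (SE 0.08) in early and 1.89 (SE 0.08) in median LP. In both, early LP was higher than median LP in every library, although neither difference passed the test (adjusted p = 0.187 and 0.116, edgeR). Sepp1 passed without HPC 3 (0.0432, and 0.118 to 0.4996 under the other alternatives). Oxr1 passed without HPC 3, with DESeq2 and with both limma fits (0.0158 to 0.0321, and 0.0981 to 0.338 under the others). Tst, the mitochondrial thiosulfate sulfurtransferase, rose by 2.36 (SE 0.11) in early and 2.34 (SE 0.11) in median LP. Abcd2, which carries very long chain fatty acids into peroxisomes, stood at 41.6, 37.6 and 26.7 CPM in HPC, 529, 504 and 514 in early LP, and 716, 644 and 557 in median LP and rose by 3.87 (SE 0.15) in early and 4.18 (SE 0.16) in median LP. Ptger4, a prostaglandin E2 receptor, stood at 8.89, 10.7 and 8.35 CPM in HPC, 53, 56.2 and 55.6 in early LP, and 75.5, 65 and 52.9 in median LP and rose by 2.56 (SE 0.13) in early and 2.79 (SE 0.13) in median LP.

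Some transcripts best known from other tissues also rose. Tg, thyroglobulin, the precursor of thyroid hormone in the thyroid gland, stood at 2.01, 1 and 1.01 CPM in HPC, 53.5, 47.3 and 45.4 in early LP, and 34.2, 46.7 and 49.4 in median LP and rose by 5.18 (SE 0.22) in early and 5.01 (SE 0.22) in median LP. It lies in a shared locus. Rbfox2, a splicing regulator, stood at 1.34, 1.97 and 1.36 CPM in HPC, 28.4, 27.4 and 26.4 in early LP, and 27, 27.3 and 29.9 in median LP and rose by 4.14 (SE 0.13) in early and 4.17 (SE 0.13) in median LP. In the opposite direction, the metal ion transporter Slc11a2, which takes up iron, fell by 1.31 (SE 0.06) in early and fell by 1.34 (SE 0.06) in median LP, beside the lower erythroid marker sums of LP, whose part in it was not tested. Soat2, which esterifies cholesterol, fell by 1.98 (SE 0.18) in early and fell by 1.63 (SE 0.18) in median LP.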
